A study of Mus musculus with 20 samples.

Results

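The nuclear-encoded complex I genes were defined here as the rows of the count table whose mouse symbol, found through the Ensembl identifier, starts with Nduf. 48 of the 15956 genes in the table met this definition, and 47 of them passed the filter on low counts among the 13991 genes tested. They comprise 36 subunit genes (7 core subunits, 9 accessory subunits of the matrix arm, 9 of the proximal and 10 of the distal membrane arm, and the acyl carrier subunit Ndufab1), 8 assembly factors (Ndufaf1 to Ndufaf8), Ndufa4 and its relative Ndufa4l2, and the pseudogene rows Ndufs6b and Ndufab1-ps. Ndufab1-ps, at a mean of 0.351 CPM (counts scaled to library size), was the member that did not pass the filter. RNA was from the left ventricle of the heart of male mice on 4 diets that cross protein with fat: a normal protein diet (NP), a diet low in protein (LP), a high-fat diet of normal protein content (HF), and a high-fat diet low in protein (HF + LP), with 5 mice in each group and 1 library per mouse. The label of LP animal 5 alone also carries a sample number, whose meaning is not given. All mice were 18 months old according to the labels, the methods place the collection of tissue earlier, and the strain is not named in the sources used here. The question put to these genes was whether protein restriction or a high-fat diet changed their transcript level in the heart.

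Complex I, the NADH:ubiquinone oxidoreductase, is the entry point of electrons from NADH into the respiratory chain of the inner mitochondrial membrane and pumps protons as it passes them to ubiquinone. Its core subunits carry the flavin, the iron-sulfur clusters and the proton channels, and those of the matrix arm are encoded in the nucleus while those of the membrane arm (the mt-Nd genes) are encoded in mitochondrial DNA. Accessory subunits surround the core and hold it together, and assembly factors help to build the complex without staying in it. The heart, which depends on oxidative metabolism, is among the tissues richest in these transcripts.

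Libraries were made by the QuantSeq 3′ method with an oligo-dT primer, which starts at the end of the transcript, so a count does not grow with the length of the transcript and CPM can be set side by side between genes, apart from differences in priming and mapping. Total counts per library were between 12559607 and 23331907, and the tested members above the pseudogene Ndufs6b had between 21 and 28021 counts in a library. Mitochondrially encoded genes took 35.4% to 47.2% of the counts. LP mouse 13 stood apart from its group: its median correlation with the other LP mice over 10159 genes was 0.908, against 0.944 to 0.979 in the other 19 libraries. The main counts and medians of the members in the comparisons that use LP mice, and the fold changes of the main genes named in them, are therefore also given without it. In whole tissue, fewer cells of a type and less RNA per cell cannot be told apart.

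The members spanned more than 3 orders of magnitude in level. Ndufb8, an accessory subunit of the distal membrane arm, had the highest mean over the 20 mice, 1276 CPM, followed by Ndufa5 of the matrix arm at 1219 CPM and Ndufv3 of the flavoprotein part at 897 CPM. The 36 subunits had a median of 449 CPM and the 8 assembly factors a median of 20.1 CPM, from 14.2 CPM for Ndufaf6 to 130 CPM for Ndufaf8. Subunits that stand in one complex were thus counted at very different levels, and most assembly factors were counted at a small fraction of the level of the subunits. The lowest subunit was Ndufs5, at 7.05 CPM, well below the next subunit, the core subunit Ndufs3, at 76.6 CPM. Ndufs5 has a near-identical copy, the processed pseudogene BC002163, itself counted at 1.29 CPM, and how reads that match both were assigned is not given in the sources used here, so its level is uncertain. In all, 7 members had a near-identical copy over the last 400 bases of the transcript, among them Ndufs6 (584 CPM), whose copy Ndufs6b was counted at 1.68 CPM. Of the 48 members, 20 overlap a gene on the opposite strand, including Ndufa3, Ndufb11 and Ndufv2, and whether strand was used in counting is not given in the sources used here.

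**Figure D1:**
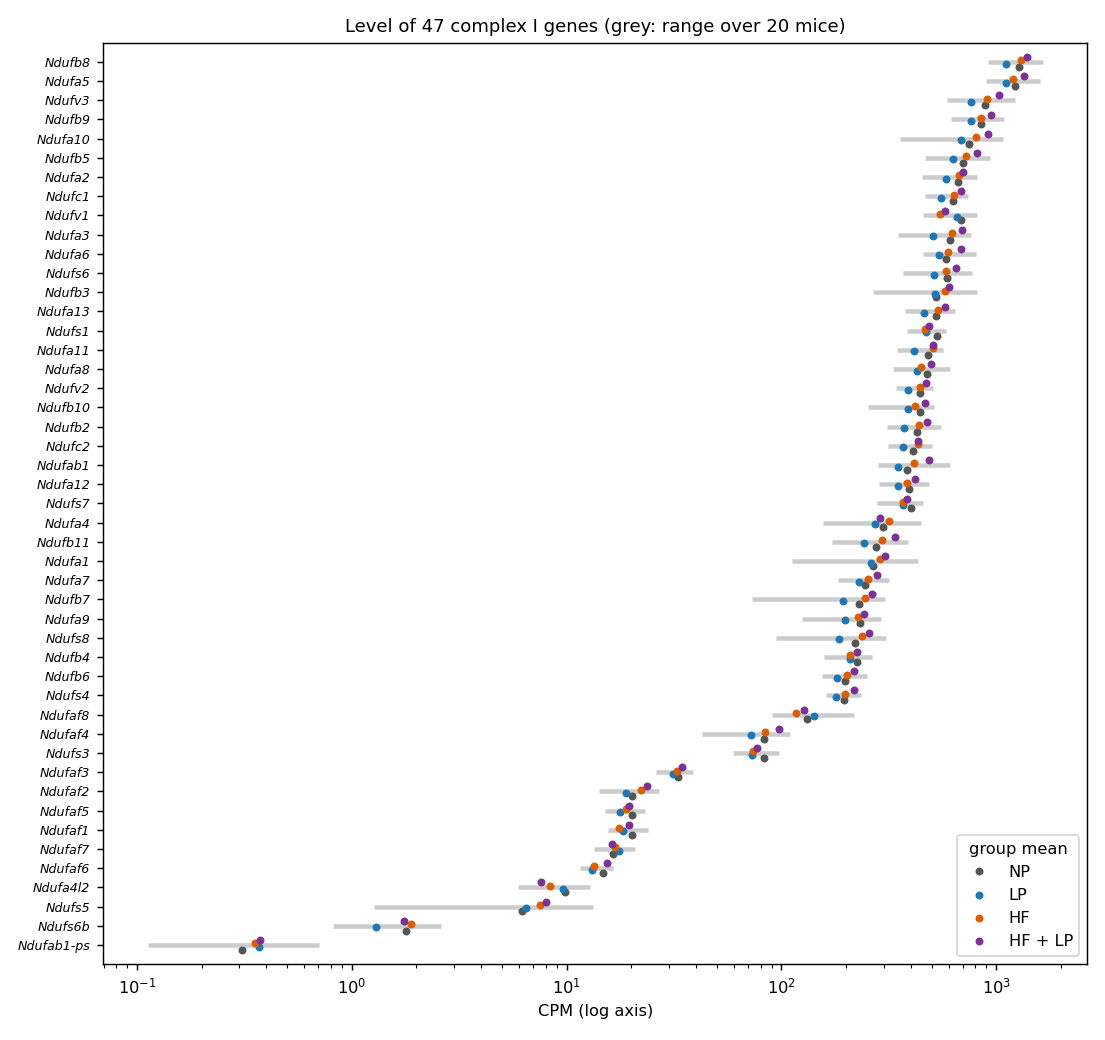
Levels of 47 of the 48 members in CPM on a log axis, ordered by the mean over 20 mice. Colored points are the means of the 4 diet groups (n = 5) and grey bars the range over all mice. The group means lie close together against the range from Ndufab1-ps at 0.351 to Ndufb8 at 1276 CPM, and the LP mean is the leftmost for most subunits.

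The spread between mice of the same diet differed among the members. The pooled within-group SD of log2 CPM had a median of 0.20 over the 47 tested members, beside 0.25 over the 10159 tested genes with a mean normalized count above 50 and 0.21 over the 1298 genes at about the level of the subunits other than Ndufs5. Ndufc1, an accessory subunit of the membrane arm, was the steadiest at 0.11, and Ndufs5 the most variable at 0.97. Ndufa1 (0.55), Ndufb3 (0.45), Ndufb7 (0.43), Ndufa4 (0.38) and Ndufa10 (0.35) came next, and these genes were singled out after their values were seen. In HF mice, Ndufa1 was at 178, 113, 435, 290 and 418 CPM in animals 1, 2, 3, 4 and 5, and in HF + LP mice at 417, 302, 328, 328 and 139 CPM in animals 1 to 5. Ndufs5 was at 3.75, 1.71, 12.2, 7.0 and 13.0 CPM in the same HF mice and at 13.3, 5.98, 9.13, 10.5 and 1.28 CPM in the same HF + LP mice. HF mouse 2 and HF + LP mouse 5 were thus low in both genes, although HF + LP mouse 5 had the highest summed level of subunits of all 20 mice. They were low in Ndufb3 too, at 267 CPM in HF mouse 2 and 322 CPM in HF + LP mouse 5, where the other mice of both groups lay at 427 CPM or above. For these members a group mean rests on widely scattered mice. Ndufb7, in contrast, owed its spread to LP mouse 13 at 72.9 CPM and NP mouse 4 at 150 CPM, with the other 18 mice between 185 and 305 CPM.

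**Figure D2:**
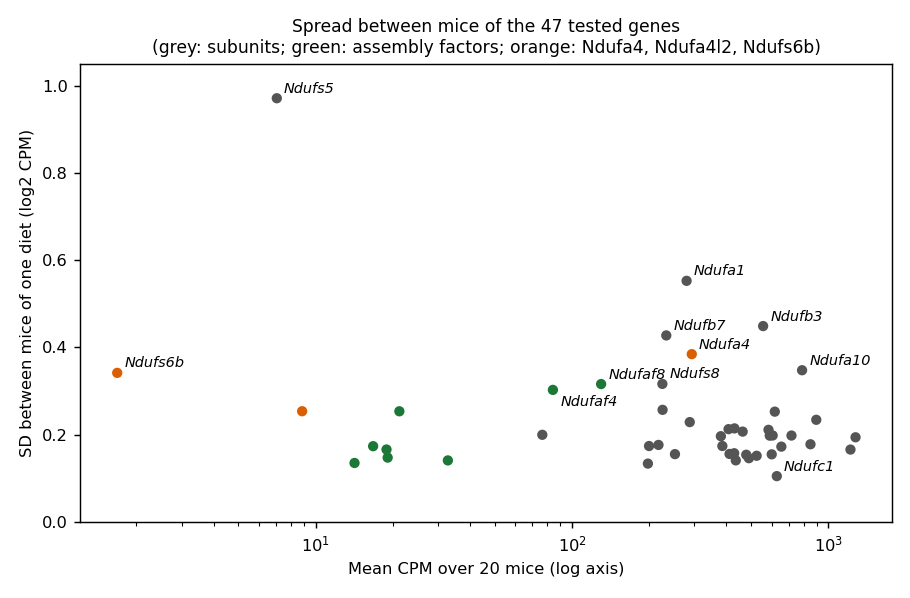
Within-group SD of log2 CPM against mean CPM (log axis) for the 47 tested members, 1 point per gene, with subunits in grey, assembly factors in green, and Ndufa4, Ndufa4l2 and Ndufs6b in orange. Ndufs5 stands alone at 0.97, Ndufa1, Ndufb3, Ndufb7 and Ndufa4 follow at 0.38 to 0.55, and most subunits lie near 0.20.

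Across the diets the members took a common order. The mean was lowest in LP for 39 of the 47 tested members and highest in HF + LP for 36, and both held for 34. These counts have no share over all genes tested beside them, so they do not show an order particular to the members. By direction alone, 93.6% of members and 45.4% of all genes tested were lower in LP than in NP. In HF + LP against LP, 91.5% and 45.8% were higher. The summed level of the 36 subunits was 17619, 16014, 19098, 18313 and 17199 CPM in NP animals 4, 5, 3, 6 and 8. It was 17809, 13291, 13347, 17396 and 17022 CPM in LP animals 2, 13, 20, 15 and 5. In HF animals 1 to 5 it was 16817, 17810, 17382, 18966 and 17653 CPM, and in HF + LP animals 1 to 5 it was 18486, 20288, 16685, 20116 and 21164 CPM. LP mice 13 and 20 were the lowest of all 20, and the other 3 LP mice lay among the NP and HF mice. Of the HF + LP mice, animals 2, 4 and 5 were above every other mouse, while animal 3 was below every NP and HF mouse except NP mouse 5. The groups therefore overlapped, and the low LP mean came from 2 of 5 mice. Of the 47 members, 40 had their lowest value of all 20 mice in LP mouse 13 or LP mouse 20 (20 in each), and 33 had their highest value in an HF + LP mouse, 19 of them in animal 5. These counts, too, have no share over all genes beside them, and LP mouse 13 stood apart from its group in the correlation given above. The mean ± SD of the summed level was 17648 ± 1164 CPM in NP, 15773 ± 2258 CPM in LP, 17726 ± 790 CPM in HF and 19347 ± 1775 CPM in HF + LP (n = 5). As a share of the nuclear counts, which leaves the mitochondrially encoded counts out of the total, all 48 members together made up 2.84% to 3.22% in NP, 2.56% to 3.11% in LP, 2.95% to 3.30% in HF, and 3.02% to 3.49% in HF + LP. As a share of all counts, mitochondrially encoded ones included, they made up 1.94% ± 0.11 in HF, 1.88% ± 0.17 in HF + LP, 1.75% ± 0.15 in NP and 1.72% ± 0.16 in LP (mean ± SD, n = 5), so that HF and not HF + LP was highest. The mitochondrially encoded share itself was 38.7% ± 0.75 in HF and 43.3% ± 3.37 in HF + LP.

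**Figure D3:**
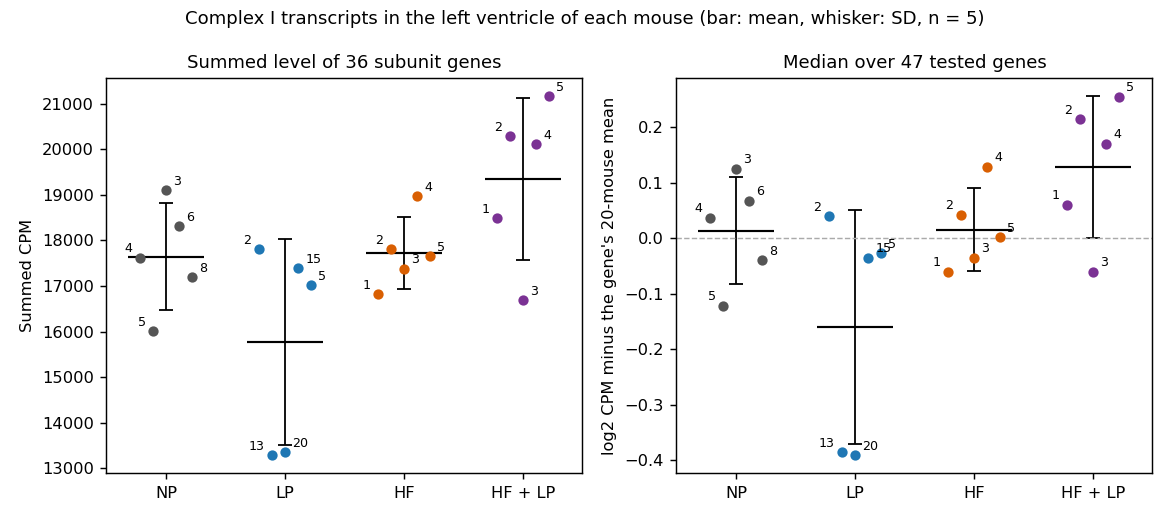
Left, summed CPM of the 36 subunit genes in each mouse; right, the median over the 47 tested members of log2 CPM minus the mean of each gene over the 20 mice. Numbers are animal numbers, bars the mean and whiskers the SD (n = 5); LP mice 13 and 20 lie lowest in both panels, at 13291 and 13347 CPM, and HF + LP mice 2, 4 and 5 highest.

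No member met the criterion for a changed gene, which asked for a mean normalized count over 50 and a Benjamini-Hochberg adjusted p under 0.01 in the quasi-likelihood test of edgeR, in any comparison. Over all 13991 genes tested, the criterion was met by 0.264% in HF against NP, 0.1% in HF + LP against LP, and 0% in each of HF + LP against HF, LP against NP, and the interaction of fat and protein. The test for any difference among the 4 diets called 0.479% of genes and none of the members, whose smallest adjusted p was 0.18 (edgeR, Benjamini-Hochberg). At an unadjusted p under 0.05 that test held for 8 of the 47 members, beside 15.9% of all genes tested. That count was 5 without LP mouse 13 and also without LP mouse 20, 13 without LP mouse 2, 4, 16, 2 and 3 without HF + LP mice 2, 3, 4 and 5, 4 with the library-name number as a factor, and 14 in DESeq2. The direction of the members in each comparison is therefore described by counts and medians. Genes of one complex share libraries and are not independent of each other, so these counts are a description.

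In HF + LP against LP, the effect of fat at low protein, 43 of the 47 members had a positive log2 fold change. The median was 0.28, beside -0.03 over all genes tested. At an unadjusted p under 0.05, 27 members (57.4%) were higher in HF + LP, where 6.26% of all genes tested were, and 1 member, Ndufa4l2, was lower, where 9.66% of all genes were. The smallest adjusted p of a member was 0.107 (edgeR, Benjamini-Hochberg), that of Ndufc1. By role, 6 of 7 core subunits, 28 of the 28 accessory subunits of the 3 arms, Ndufab1, and 6 of 8 assembly factors had a positive value, with medians of 0.08 for the core subunits, 0.29 for the matrix arm, 0.31 for the proximal and 0.32 for the distal membrane arm, and 0.14 for the assembly factors. The count of 27 fell to 13 when only the LP and HF + LP groups entered the model, with a median of 0.28. A fit with the animal number as a block gave 12 and a median of 0.20. That fit held only animals 2 and 5 of each group, the numbers the groups share, so LP mice 13 and 20 were not in it. The count of 27 also moved with single mice. Without LP mouse 13, 17 members were higher at an unadjusted p under 0.05, and without LP mouse 20, 15 were. The median was 0.23 in both cases, with 44 and 41 of the 47 members positive. The medians by role without LP mouse 13 were 0.05 for the core subunits, 0.22 for the matrix arm, 0.25 for each part of the membrane arm, and 0.16 for the assembly factors.

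In LP against NP, protein restriction without added fat, 44 of the 47 members had a negative value. The median was -0.16, beside 0.02 over all genes tested. At an unadjusted p under 0.05, 2 members, Ndufc1 and Ndufa3, were lower in LP, where 2.21% of all genes tested were, and no member was higher. All 7 core subunits, all 9 of the matrix arm and all 10 of the distal membrane arm were negative, and Ndufs5 was the subunit with a positive value, 0.06. Without LP mouse 13 Ndufs5 was at 0.20, and Ndufa10 was positive as well, at 0.03. The median was -0.10 without LP mouse 13 and also -0.10 without LP mouse 20, while 44 and 43 members stayed negative. The count of 2 members at an unadjusted p under 0.05 moved with single mice: it was 1 without LP mouse 13, 0 without LP mouse 20, NP mouse 3, 4, 6 or 8, or HF mouse 4, 5 without LP mouse 2 or 15, 4 without LP mouse 5 or HF + LP mouse 3, and 1 to 3 without any 1 of the others. It was 0 with only the LP and NP groups in the model and 0 with the library-name number as a factor.

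In HF against NP, the effect of fat at normal protein, the members were split: 29 were positive and 18 negative, with a median of 0.02, beside -0.00 over all genes. Ndufv1, the subunit that binds NADH and the flavin, was the single member at an unadjusted p under 0.05, and it was lower in HF, where 7.91% of all genes were. Its unadjusted p was close to 0.05, and no member passed with RLE size factors, nuclear genes only, DESeq2, no filter on low counts, the library-name number as a factor, or in 13 of the 20 fits that left out 1 mouse. When each mouse was left out in turn the median lay between -0.01 and 0.06, so its sign was not fixed. In HF + LP against HF, protein restriction within the high-fat diet, 43 members were positive with a median of 0.11, beside 0.02 over all genes, and all 36 subunits were among them, whereas the share of all counts taken by the members was lower in HF + LP than in HF. With all mice included, no member passed an unadjusted p of 0.05 there in edgeR or in DESeq2, where 4.84% of all genes tested did in either direction in edgeR. When each mouse was left out in turn, 0 to 3 members passed it in edgeR, all higher in HF + LP. The smallest adjusted p of a member with all mice was 0.999 (edgeR, Benjamini-Hochberg). The interaction compares the effect of low protein on the 2 fat levels. It was positive for 44 members, with a median of 0.28 beside -0.01 over all genes, and 4 members (Ndufaf6, Ndufc1, Ndufa3 and Ndufb2) passed an unadjusted p of 0.05 (8.51% of members), where 2.86% of all genes were higher at that level. The smallest adjusted p was 0.683 (edgeR, Benjamini-Hochberg). Without LP mouse 13 the median was 0.22 with 3 members at an unadjusted p under 0.05, and without LP mouse 20 it was 0.22 with 2. LP mice enter LP against NP, HF + LP against LP and the interaction, so these 3 results are not independent of each other.

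**Figure D4:**
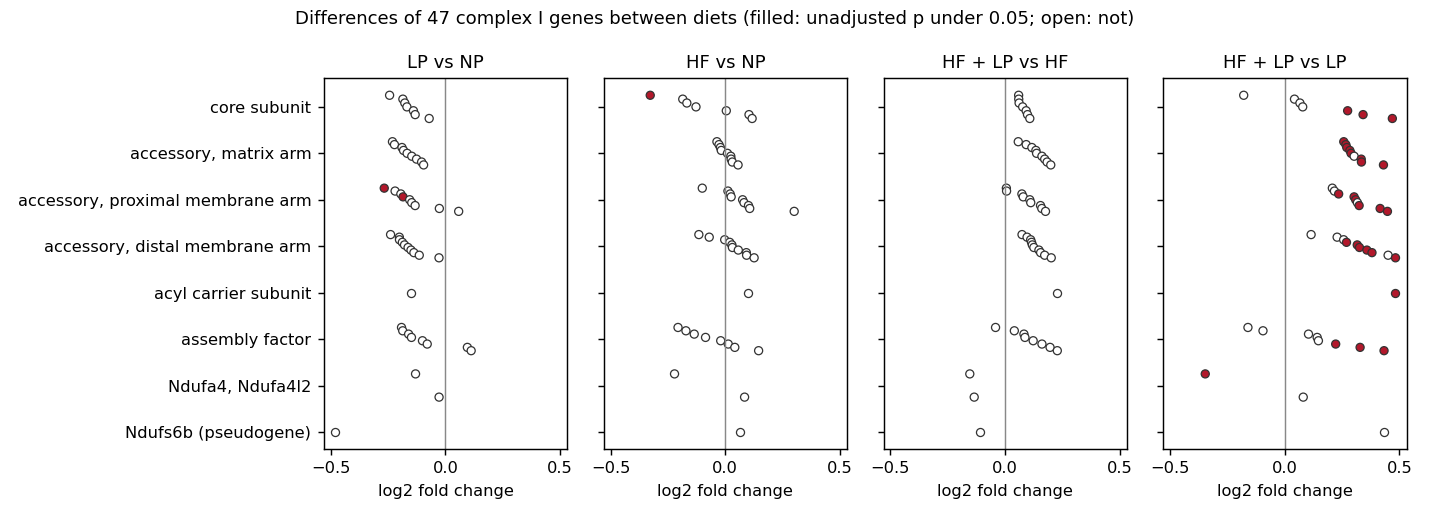
log2 fold change of each tested member, 1 point per gene, grouped by role in the complex, in 4 comparisons between diets. Filled points passed an unadjusted p of 0.05; 27 of them lie to the right and 1 to the left in HF + LP against LP, 2 to the left in LP against NP, and 1 to the left in HF against NP.

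The libraries carry a number, 1, 2 or 3, in their names, whose meaning the labels do not give. Numbers 1, 2 and 3 hold 1, 2 and 2 NP mice, 2, 1 and 2 LP mice, and 1, 1 and 3 mice in each of HF and HF + LP, so that every value within numbers 1 and 2 rests on a single mouse in at least 1 group and has no full replicate check. Within numbers 1, 2 and 3, the median difference of the members between HF + LP and LP was 0.23, 0.59 and 0.16 on the log2 scale, where the second value is 1 HF + LP mouse against LP mouse 20. HF + LP against HF gave 0.12, 0.18 and 0.11, the first 2 of them from 1 mouse against 1. LP against NP gave -0.20 and -0.50 within numbers 1 and 2, which hold LP mice 13 and 20, but 0.05 within number 3. The lower level in LP than in NP was thus not found within number 3, the one number with at least 2 mice in every group. HF against NP gave -0.11, -0.05 and 0.11.

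Ndufc1 and Ndufa3, small accessory subunits of the proximal membrane arm, were the members with an unadjusted p under 0.05 in LP against NP, in HF + LP against LP, and in the interaction. Ndufc1 was at 679, 559, 643, 641 and 640 CPM in NP animals 4, 5, 3, 6 and 8, and at 586, 546, 466, 612 and 571 CPM in LP animals 2, 13, 20, 15 and 5. It was at 606, 643, 667, 645 and 627 CPM in HF animals 1 to 5, and at 673, 707, 627, 704 and 736 CPM in HF + LP animals 1 to 5. Every HF + LP mouse was above every LP mouse, whereas LP and NP overlapped through NP mouse 5. The log2 fold change was 0.31 ± 0.09 (SE) in HF + LP against LP (adjusted p = 0.107) and -0.18 ± 0.09 in LP against NP (adjusted p = 0.678, both edgeR with Benjamini-Hochberg adjustment). The criterion rests on edgeR, and DESeq2, run as an alternative, gave the former an adjusted p of 0.00826. That lies under the same threshold of 0.01, where DESeq2 called 84 of the 13991 genes tested. Without LP mouse 13 the edgeR log2 fold changes were 0.30 and -0.18.

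Ndufa3 was at 629, 544, 657, 626 and 586 CPM in the same NP mice and at 582, 350, 450, 614 and 532 CPM in the same LP mice. It was at 570, 572, 643, 690 and 623 CPM in the HF mice and at 641, 760, 592, 693 and 762 CPM in the HF + LP mice. LP mice 13 and 20 were again the lowest, LP mouse 15 lay within the HF + LP range, and the groups overlapped. The log2 fold change in HF + LP against LP was 0.45 ± 0.13 (SE), with an adjusted p of 0.115 by edgeR with Benjamini-Hochberg adjustment, and 0.34 without LP mouse 13. In LP against NP it was -0.27, and -0.16 without LP mouse 13. Non-overlap of HF + LP above LP, as in Ndufc1, was found for 3 members of 47, the others being Ndufa13 and the core subunit Ndufv2, and for 0.915% of all genes tested.

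The sequence around the transcription start was available for 40 of the 48 members, from RefSeq on GRCm38.p6, as 250 bases before and 50 after the start. A pair of motifs named for regulators of mitochondrial genes were searched on both strands, the 8 letters AAGATGGC of a YY1 site and the 8 letters GCGCATGC at the core of an NRF1 site. A match of the second motif on one strand can overlap a match on the other, as in Ndufa11. AAGATGGC was in 8 of the 40 member promoters (20%) and in 862 of the 27025 genes with a promoter sequence, and GCGCATGC was in 5 (12.5%) and in 824 of the same genes (3.05%). All 8 copies of AAGATGGC read in the direction of the gene and began between bases 11 and 39 after the start, in Ndufc1 and Ndufa3 both at base 23. The GCGCATGC matches lay in Ndufa6, Ndufa8, Ndufa11, Ndufaf4 and Ndufaf5. The windows below run from 90 bases before to 30 after the start, 5′ to 3′ on the strand of the gene, with the motif in capitals. Ndufc1 (chr3:51408926-51409045, minus strand) and Ndufa3 (chr7:3617283-3617402, plus strand) are shown as the members at an unadjusted p under 0.05 in the 3 results above, and Ndufa11 (chr17:56717672-56717791, plus strand) and Ndufa6 (chr15:82354262-82354381, minus strand) for the second motif.
Ndufc1: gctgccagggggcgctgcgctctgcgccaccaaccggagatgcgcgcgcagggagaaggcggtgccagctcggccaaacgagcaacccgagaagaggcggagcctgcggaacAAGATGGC
Ndufa3: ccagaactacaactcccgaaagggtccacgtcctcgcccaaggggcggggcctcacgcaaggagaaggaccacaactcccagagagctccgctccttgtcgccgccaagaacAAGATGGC
Ndufa11: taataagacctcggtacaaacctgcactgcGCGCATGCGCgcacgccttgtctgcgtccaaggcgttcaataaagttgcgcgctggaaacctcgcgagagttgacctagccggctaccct
Ndufa6: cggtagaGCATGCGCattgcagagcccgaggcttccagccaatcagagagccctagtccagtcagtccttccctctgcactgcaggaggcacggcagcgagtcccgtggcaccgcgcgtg
The motif in Ndufc1 and Ndufa3 thus closes the window, and that of Ndufa11 and Ndufa6 lies before the start. A match of letters does not show that a factor binds there.

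The remaining members with the smallest unadjusted p in HF + LP against LP were Ndufab1, Ndufb11, Ndufb2, Ndufb5, Ndufa6 and Ndufa13. Ndufab1 is the mitochondrial acyl carrier protein, which also serves fatty acid and lipoic acid synthesis. It was at 414, 282, 299, 374 and 369 CPM in LP animals 2, 13, 20, 15 and 5 and at 424, 537, 374, 608 and 481 CPM in HF + LP animals 1 to 5. HF + LP mouse 3, the lowest of its group, lay within the LP range, and the other 4 were above it. Its log2 fold change was 0.48 ± 0.13 (SE; adjusted p = 0.113), and Ndufb11, of the distal membrane arm, had 0.48 ± 0.14 (adjusted p = 0.125, edgeR with Benjamini-Hochberg adjustment). Without LP mouse 13 they were 0.41 and 0.37.

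Ndufb2, also of the distal arm, was at 411, 333, 311, 403 and 406 CPM in the LP mice and at 442, 492, 390, 508 and 555 CPM in the HF + LP mice. HF + LP mouse 3 was again the one within the LP range. Its log2 fold change was 0.36 ± 0.11 (SE), and those of Ndufb5, Ndufa6 and Ndufa13 were 0.38, 0.33 and 0.32. Without LP mouse 13 these 4 values were 0.31, 0.28, 0.29 and 0.25. Ndufa6, of the matrix arm, was at 624, 488, 456, 568 and 574 CPM in LP and at 621, 707, 610, 807 and 672 CPM in HF + LP, so that LP mouse 2 lay among the HF + LP mice. Ndufa13, known as GRIM-19, was at 504, 375, 382, 527 and 515 CPM in LP and at 543, 595, 545, 557 and 643 CPM in HF + LP, without overlap.

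**Figure D5:**
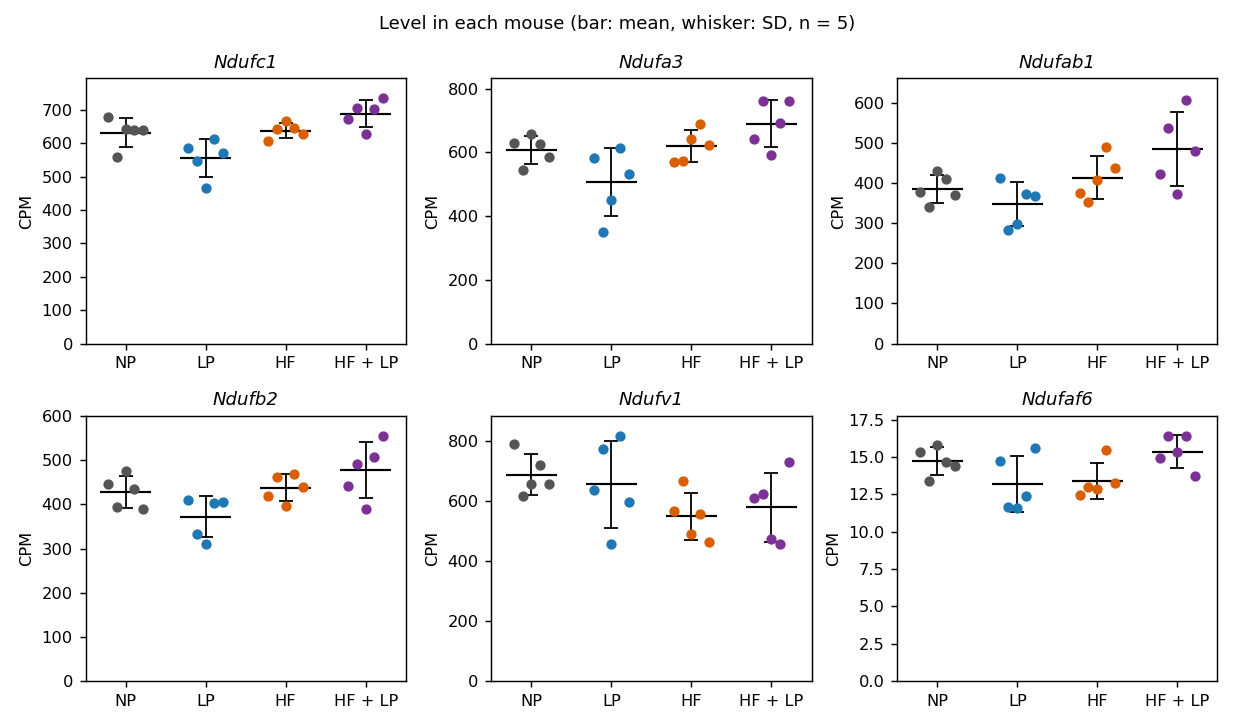
Level in CPM of 6 members in each mouse by diet group, with the mean as a bar and the SD as a whisker (n = 5) and axes that start at 0. Ndufc1 in HF + LP lies above every LP mouse, Ndufa3, Ndufab1 and Ndufb2 overlap through single mice, Ndufv1 has its lowest means in HF and HF + LP, at 549 and 579 CPM, and Ndufaf6 in LP and HF, at 13.2 and 13.4 CPM.

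The 7 nuclear core subunits fell into unlike patterns in HF + LP against LP. Ndufs8, which holds iron-sulfur clusters, had a log2 fold change of 0.47 ± 0.18 (SE), and Ndufv2, an iron-sulfur subunit beside Ndufv1, had 0.27. Ndufs1 (0.04), Ndufs7 (0.07) and Ndufs3 (0.08) were near 0, and Ndufv1 was at -0.18, or -0.11 without LP mouse 13. The adjusted p of Ndufs8 and Ndufv2 was 0.208 and 0.186 (edgeR, Benjamini-Hochberg). Ndufs8 was at 228, 94.9, 172, 214 and 219 CPM in the LP mice and at 233, 274, 201, 270 and 306 CPM in the HF + LP mice. LP mouse 13 alone was far below every other mouse in Ndufs8, whose log2 fold change without it was 0.30.

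Ndufv1 had its own pattern. It was at 790, 617, 656, 722 and 656 CPM in the NP mice, 636, 772, 455, 816 and 596 CPM in the LP mice, 566, 667, 489, 558 and 463 CPM in the HF mice, and 610, 622, 475, 456 and 731 CPM in the HF + LP mice. The HF and NP groups overlapped through HF mouse 2, and LP mouse 13, low in most subunits, was here among the highest. The log2 fold change in HF against NP was -0.33 ± 0.15 (SE; adjusted p = 0.376, edgeR with Benjamini-Hochberg adjustment). Ndufs1, the largest iron-sulfur subunit, had -0.19 and Ndufs3 had -0.17 in HF against NP, neither at an unadjusted p under 0.05.

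Among the assembly factors, Ndufaf6 and Ndufaf4 had the largest interactions, 0.36 and 0.42, of which that of Ndufaf6 passed an unadjusted p of 0.05. With LP mouse 13 left out they were 0.31 and 0.27, and that of Ndufaf1 was 0.27 as well. Ndufaf6, needed for an early step of assembly, was at 15.3, 13.4, 15.8, 14.7 and 14.4 CPM in the NP mice, 14.7, 11.7, 11.6, 12.4 and 15.6 CPM in the LP mice, 12.4, 13.0, 12.9, 15.5 and 13.3 CPM in the HF mice, and 14.9, 16.4, 15.4, 16.4 and 13.7 CPM in the HF + LP mice. All 4 groups overlapped. Ndufaf4, which works with Ndufaf3, was at 88.2, 42.6, 60.3, 64.5 and 107 CPM in the LP mice, with the highest LP mouse above 4 of the 5 HF + LP mice, which lay between 84.2 and 109 CPM. Its log2 fold change in HF + LP against LP was 0.43, that of Ndufaf2, a relative of the subunit Ndufa12, was 0.33 and that of Ndufaf6 was 0.22, the 3 assembly factors at an unadjusted p under 0.05. Without LP mouse 13 these were 0.28, 0.23 and 0.17. Ndufaf1 (0.10), Ndufaf3 (0.15), Ndufaf5 (0.14), Ndufaf7 (-0.09) and Ndufaf8 (-0.16) did not pass it. The value of Ndufaf8 changed sign when LP mouse 13 was left out, to 0.04, and those of Ndufaf1 and Ndufaf7 were then 0.06 and -0.02. Ndufaf8, the partner of the hydroxylase Ndufaf5, was highest in LP mouse 13, at 218 CPM, where the other 19 mice lay between 90.9 and 173 CPM. Of 10 measured assembly factors without an Nduf name, 5 were positive and 5 negative in HF + LP against LP with a median of -0.01, and 1, Tmem126b, was higher at an unadjusted p under 0.05 (0.21).

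Ndufa4, which is named for complex I but is now counted with cytochrome c oxidase, was at 272 ± 17.8 CPM in LP and 287 ± 53.3 CPM in HF + LP (mean ± SD, n = 5), with a log2 fold change of 0.08 between them. Ndufa4l2, its relative known as a hypoxia-induced gene, was at 9.41, 12.8, 5.92, 11.1 and 8.95 CPM in the LP mice and at 7.98, 8.75, 7.51, 7.0 and 6.62 CPM in the HF + LP mice. Of the 4 members with a negative value in HF + LP against LP it was the one at an unadjusted p under 0.05, with a log2 fold change of -0.35 and an adjusted p of 0.299 (edgeR, Benjamini-Hochberg), and -0.22 without LP mouse 13. The pseudogene Ndufs6b had 0.44 in HF + LP against LP and -0.48 in LP against NP at 1.68 CPM, neither at an unadjusted p under 0.05.

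The other complexes of oxidative phosphorylation, taken from a list, are given for comparison, with all mice included. Of 42 nuclear genes of complexes II to V, 37 were positive in HF + LP against LP, 19 of these passing an unadjusted p of 0.05, with a median of 0.23. In LP against NP 35 of the 42 were negative, with a median of -0.13, and in the interaction 38 were positive, with a median of 0.27. No gene of these lists was called. All 6 measured mitochondrially encoded subunits of complex I were also positive in HF + LP against LP, with a median of 0.40, and 4 of them, mt-Nd1, mt-Nd2, mt-Nd5 and mt-Nd6, passed an unadjusted p of 0.05. Of 13 regulators of mitochondrial biogenesis, 8 were positive and 5 negative there, with Perm1 (0.48) and Tfb2m (0.78) higher and Nrf1 (-0.46), which encodes the factor of the motif above, lower at an unadjusted p under 0.05 and none called.

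LP mice 13 and 20, the lowest in complex I, also had the lowest summed levels of heart muscle and endothelial markers and the highest of adipocyte markers. The other marker lists did not set these mice apart together. The 9 cardiomyocyte markers were all counted, which is what left ventricle should give, and their summed level ran from 52358 to 62034 CPM in NP, 39505 to 57700 CPM in LP, 43060 to 53351 CPM in HF, and 41522 to 60335 CPM in HF + LP. LP mouse 20 (39505 CPM) and LP mouse 13 (39713 CPM) were the lowest of all 20 mice, and HF + LP mouse 3, the lowest of its group in complex I, was the next at 41522 CPM. HF mice 1, 3 and 5 followed at 45421, 43060 and 45931 CPM. Their summed subunit levels, 16817, 17382 and 17653 CPM, lay within the NP range. The 5 adipocyte markers summed to 294 CPM in LP mouse 13 and 132 CPM in LP mouse 20, and to between 0.52 and 67.5 CPM in the other 18 mice. All 5 were lower in HF + LP than in LP at an unadjusted p under 0.05. The 4 atrial markers summed to 14483 CPM in LP mouse 13, the highest of all mice, 5157 CPM in LP mouse 15, 12051 CPM in HF mouse 1 and 5134 CPM in HF + LP mouse 3, while the lowest mouse had 57.2 CPM. The 6 myeloid markers ran from 179 to 440 CPM in LP and from 224 to 337 CPM in HF + LP, the 5 endothelial markers from 378 to 655 CPM and from 468 to 686 CPM, the 5 fibroblast markers from 816 to 1206 CPM and from 849 to 1042 CPM, the 5 smooth muscle and pericyte markers from 365 to 530 CPM and from 434 to 578 CPM, and the 5 erythroid markers from 5646 to 12904 CPM and from 4836 to 18480 CPM. LP mice 13 and 20 were at 440 and 253 CPM in the myeloid, 378 and 410 CPM in the endothelial, and 1206 and 949 CPM in the fibroblast markers. They were at 506 and 365 CPM in the smooth muscle and pericyte markers, and at 12315 and 12904 CPM in the erythroid markers. The 4 counted lymphocyte markers summed to 31.0 CPM in LP mouse 20 and to at most 3.59 CPM in every other mouse. The part of these cell types in the lower complex I level of LP mice 13 and 20 was not tested.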

How the data were processed

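Left ventricular RNA of 20 mice was sequenced by the study as QuantSeq 3′ libraries with 75 bp reads on a NextSeq 500 and aligned with BlueBee software. The authors deposited raw read counts per Ensembl gene. The submitters' processing notes list the GRCm38 build and DESeq2 1.22.2; the annotation, the counting program and the use of strand are not given in the sources used here. The least counted gene in the table has 60 counts over all libraries. Groups and animal numbers are those of the sample labels.

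Symbols and positions came from GENCODE M21, which gave a symbol to 15917 of 15956 genes. The tests used edgeR 4.0.16 under R 4.3.3. Genes kept by filterByExpr (13991) were scaled by TMM, all 20 libraries entered one quasi-likelihood fit, and p-values were adjusted by Benjamini-Hochberg over the 13991 genes. The call criterion was a mean normalized count over 50 with an adjusted p under 0.01. Its thresholds were those of the study, which names DESeq2 for its tests. Here they were applied to edgeR, with DESeq2 as an alternative. CPM used TMM-scaled library sizes, and log2 CPM a prior count of 2. Standard errors come from the F statistic. Counts of 12559607 to 23331907 per library leave little counting error for members above 100 CPM, so the spread between mice set the precision. The test was also run on simulated counts, the outcome of which is not given here.

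Named genes were the members with an unadjusted p under 0.05 (at most 8 per comparison), the core subunits, the 3 highest and 3 lowest in level, the Ndufaf genes, Ndufa4 and Ndufa4l2. Members, lists and tests were chosen with earlier results of these data known. Alternatives were RLE size factors, nuclear genes only, DESeq2 1.42.0, no filter, a minimum of 10 counts per library, a threshold of 0.05 for the adjusted p, no minimum mean, the library-name number as a factor, only the compared groups, the animal number as a block, and each mouse left out. 1 member is counted in the totals but not reported individually here.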

Additional observations from a re-analysis of the deposited data

Results flagged for a closer look

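A single mouse far from the other 4 of its group, by Dixon's ratio at its 95% critical value, was found in 4 of the 128 groups of values examined (30 named members, the summed subunit level and the mitochondrially encoded share, each in 4 diets); chance gives about 1 in 20. Ndufa5 was at 1369 CPM in HF mouse 2, against 1123 to 1179 CPM in the other HF mice, and at 1593 CPM in HF + LP mouse 5, against 1235 to 1317 CPM in the other HF + LP mice. Ndufaf3 was at 38.0 CPM in HF mouse 2, against 30.3 to 31.9 CPM. Ndufaf6 was at 15.5 CPM in HF mouse 4, against 12.4 to 13.3 CPM. HF mouse 2 and HF + LP mouse 5, high in Ndufa5, were the mice low in Ndufa1, Ndufs5 and Ndufb3. LP mice 13 and 20 lay close to each other, so neither stood alone by this ratio in the summed level.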

How the results depend on the processing

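No member was called in any comparison under the alternatives run, except 1 (Ndufc1, HF + LP against LP) with DESeq2. In HF + LP against LP, the count of 27 members higher at an unadjusted p below 0.05 became 13 with only the compared groups in the model, 12 with the animal number as a replicate block, and 15 to 30 when each mouse was left out, 15 without LP mouse 20 and 17 without LP mouse 13; the other alternatives gave 22 to 27. The medians moved too. In HF + LP against LP the main value of 0.28 became 0.20 with the replicate block and 0.23 to 0.33 with mice left out. With mice left out, 0.11 became 0.09 to 0.13 in HF + LP against HF, and 0.28 became 0.22 to 0.32 in the interaction. In LP against NP, -0.16 became -0.20 to -0.10. In HF against NP the median changed sign, from 0.02 to -0.00 with the replicate block, and ran from -0.01 to 0.06 with mice left out. The numbers did not pair the mice (correlations of deviations from -0.55 to 0.48), so the block shares only a number, and LP and NP share too few numbers for it. The block fit also kept only mice whose number occurs in both groups. These were animals 2 and 5 in HF + LP against LP, and animals 3, 4 and 5 in HF against NP. Its values therefore differ from the main ones in the mice used as well as in the block. Over all genes tested, DESeq2 called 163, 16, 4 and 84 genes in HF against NP, HF + LP against HF, LP against NP, and HF + LP against LP, where edgeR called 37, 0, 0 and 14; in HF against NP and HF + LP against LP, counts were 157 and 45 at an adjusted p below 0.05, 31 and 5 with the library-name number as a factor, 61 and 0 with only the compared groups, 0 and 26 with the replicate block, and 20 to 69 and 1 to 16 with mice left out. For any difference among the diets edgeR called 67, DESeq2 327, and the library-name factor left 38; with mice left out 33 to 101 were called. The count of 4 members at an unadjusted p under 0.05 in the interaction ran from 2 to 15 with mice left out, 15 without LP mouse 2. Causes were not tested.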
